A study of Mus musculus with 16 samples.

Results

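The heat shock and chaperone genes examined here were the heat shock factor gene Hsf1, the HSP70 genes Hspa1a, Hspa1b and Hspa8, their partners Hsph1, Dnajb1 and Bag3, the cytosolic HSP90 genes Hsp90aa1 and Hsp90ab1, and the small heat shock protein gene Hspb1. They were chosen by name, and every peak of histone H3 acetylated at lysine 27 (H3K27Ac) that the deposited annotation assigned to their symbols was taken. These were 10 of the 10927 gene symbols with a peak, and 86 of the 53959 peaks in the 4 H3K27Ac lists. At rest they numbered 22 of 15757 in Des+/+ and 24 of 16638 in Des-/-, and after swimming 21 of 11157 and 19 of 10407.

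The study profiled adult cardiomyocytes by chromatin immunoprecipitation sequencing (ChIP-seq) to ask how the desmin intermediate filament network affects the chromatin of the heart muscle cell. All mice were 3 months old. Des+/+ mice carried intact desmin and Des-/- mice carried none in any tissue, so the Des-/- cells came from hearts that had lacked desmin throughout development. Basal mice did not swim, and swim mice had gone through swimming exercise as a stress before the cells were isolated by enzymatic perfusion. Each genotype and condition had 1 H3K27Ac library, made from the pooled chromatin of several mice, and its own input library of unprecipitated chromatin. With 1 library per group no spread between replicates could be measured and no test was made. The labels list a different catalogue number of the H3K27Ac antibody for each library, whereas the methods of the study name the same antibody for all.

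The height of a peak is the number of reads that overlap at its summit, and its input height is the same number in the input library. Intervals are exact 95% Poisson intervals of heights, or exact conditional binomial intervals of ratios. They describe counting error and not the spread between mice or libraries. Where 4 values are given in library order, both basal libraries come before both swim libraries, and within each pair the wild type comes before Des-/-. Sequencing depth of each library is known only as an approximate total in the methods. The smallest height listed was 15 reads in every library. A gene without a peak under its symbol thus had a signal below that height, failed the false discovery rate filter, or had its peak assigned to a neighbour. Such a gene was not shown to lack the mark. Promoter peaks were found at 10 of 10 cardiomyocyte marker genes in each library except Des-/- swim, which had them at 7 and lacked them at Actc1, Actn2 and Myl2. Endothelial markers had promoter peaks at 9, 9, 7 and 7 of 10 genes in library order, with summed heights of 310, 261, 185 and 198 reads. Promoter peaks were rare at fibroblast markers, with 1, 2, 0 and 0 of 10, and at leukocyte markers, with 1, 1, 0 and 1 of 10. The highest promoter peak of Des itself was 30, 46, 24 and 37 reads in this order, and peak lists cannot show whether the deleted sequence is missing, so they do not check the genotype labels.

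Heat shock proteins are molecular chaperones that bind unfolded proteins, keep them from aggregating and help them refold or pass them on for degradation. When unfolded proteins accumulate, HSF1 is released from chaperones, forms trimers and binds heat shock elements, which are alternating repeats of the sequence GAA and its inverse TTC, and the bound genes are then transcribed within minutes. In striated muscle, chaperones guard filament proteins that are under constant mechanical load, and BAG3 with HSC70 and small heat shock proteins clears damaged Z-disc proteins. H3K27Ac marks active promoters and enhancers. It reports the state of the chromatin and not the amount of RNA or protein.

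The RefSeq promoter table of build GRCm38.p6 held 6 of the 10 genes, namely Hspa1a, Hspa1b, Hsph1, Dnajb1, Bag3 and Hspb1. The upstream sequences below are shown because H3K27Ac peaks lay on or beside each of them and because the presence of a heat shock element divided them. Each runs 5′ to 3′ on the strand of its gene and ends at the base before the RefSeq start. Capitals mark a heat shock element of 2 units, GAANNTTC or TTCNNGAA. Hspa1a and Hspa1b lie on the minus strand, upstream of their starts at chr17:34972157-34972406 and chr17:34959239-34959488. Hspb1 and Bag3 lie on the plus strand, at chr5:135887669-135887918 and chr7:128523333-128523582. For Dnajb1, on the plus strand, chr8:83607972-83608174 is given, without the bases further upstream that belong to an annotated exon.
Hspa1a: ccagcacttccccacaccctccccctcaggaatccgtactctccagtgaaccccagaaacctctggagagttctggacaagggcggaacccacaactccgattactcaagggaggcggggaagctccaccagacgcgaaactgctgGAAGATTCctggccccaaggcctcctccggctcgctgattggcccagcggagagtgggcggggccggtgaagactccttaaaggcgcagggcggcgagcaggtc
Hspa1b: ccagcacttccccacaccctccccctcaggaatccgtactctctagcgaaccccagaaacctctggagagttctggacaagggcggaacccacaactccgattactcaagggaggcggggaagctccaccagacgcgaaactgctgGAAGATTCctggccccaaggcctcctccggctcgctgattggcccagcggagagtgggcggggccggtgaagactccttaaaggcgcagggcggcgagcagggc
Hspb1: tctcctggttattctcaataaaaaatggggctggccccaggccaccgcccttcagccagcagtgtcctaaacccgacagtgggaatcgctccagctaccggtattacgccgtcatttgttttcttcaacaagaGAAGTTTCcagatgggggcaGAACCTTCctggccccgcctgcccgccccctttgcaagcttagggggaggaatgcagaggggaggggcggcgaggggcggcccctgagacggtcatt
Bag3: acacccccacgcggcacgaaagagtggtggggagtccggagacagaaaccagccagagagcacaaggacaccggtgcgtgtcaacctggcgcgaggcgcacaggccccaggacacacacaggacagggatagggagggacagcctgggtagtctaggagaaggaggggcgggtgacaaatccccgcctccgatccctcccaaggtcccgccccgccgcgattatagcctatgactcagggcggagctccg
Dnajb1: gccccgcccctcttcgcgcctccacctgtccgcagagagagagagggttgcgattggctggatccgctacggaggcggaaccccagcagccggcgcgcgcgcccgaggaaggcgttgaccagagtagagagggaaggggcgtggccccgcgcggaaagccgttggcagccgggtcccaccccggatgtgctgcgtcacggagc

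Upstream sequences of the inducible HSP70 pair were nearly the same. Over 250 bases, 247 were identical and 3 differed, T207C, C204T and G2T, where the Hspa1b base stands before the number of bases upstream of the start and the Hspa1a base after it. Both carried the element GAAGATTC 104 to 97 bases upstream, 1 CCAAT box and 3 GGGCGG boxes, the motif bound by SP1. Hspb1 had a pair of heat shock elements, GAAGTTTC at 117 to 110 and GAACCTTC at 97 to 90 bases upstream. Hsph1 had TTCTCGAA, 54 to 47 bases before its most downstream annotated start and within an exon of a longer transcript. Over 250 upstream bases, Bag3 and Dnajb1 had no match to this motif. Both strands were searched, and 12.8% of the 32851 promoters in the table held at least 1 match. A heat shock element of 3 alternating units was found in 0.466% of promoters and in none of the 6 genes, and TATAAA, found in 12.4%, was in none of them either. CCAAT was in 33.8% and GGGCGG in 32.7% of promoters. A match to so short a motif is a description of the letters and was not tested as a binding site.

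Most of these genes carried tall H3K27Ac peaks at their starts. A promoter peak is one that the annotation places within 3 kb of the start of its gene, and the promoter height of a gene is the height of its highest promoter peak. Such peaks were assigned to 10 of the 10 genes in Des+/+ swim and to 9 in every other library. Median promoter heights of the listed genes were 74, 86, 43.5 and 42 reads in library order, against 28, 30, 23 and 27 reads over all genes with a promoter peak. The median input height under these peaks was 4, 3, 4 and 8 reads, against 3, 3, 3 and 6 reads over all genes. Bases covered by promoter peaks had medians of 1913, 2269, 1370.5 and 1346 per gene, against 1174, 1219, 979 and 1027 over all genes.

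**Figure D1:**
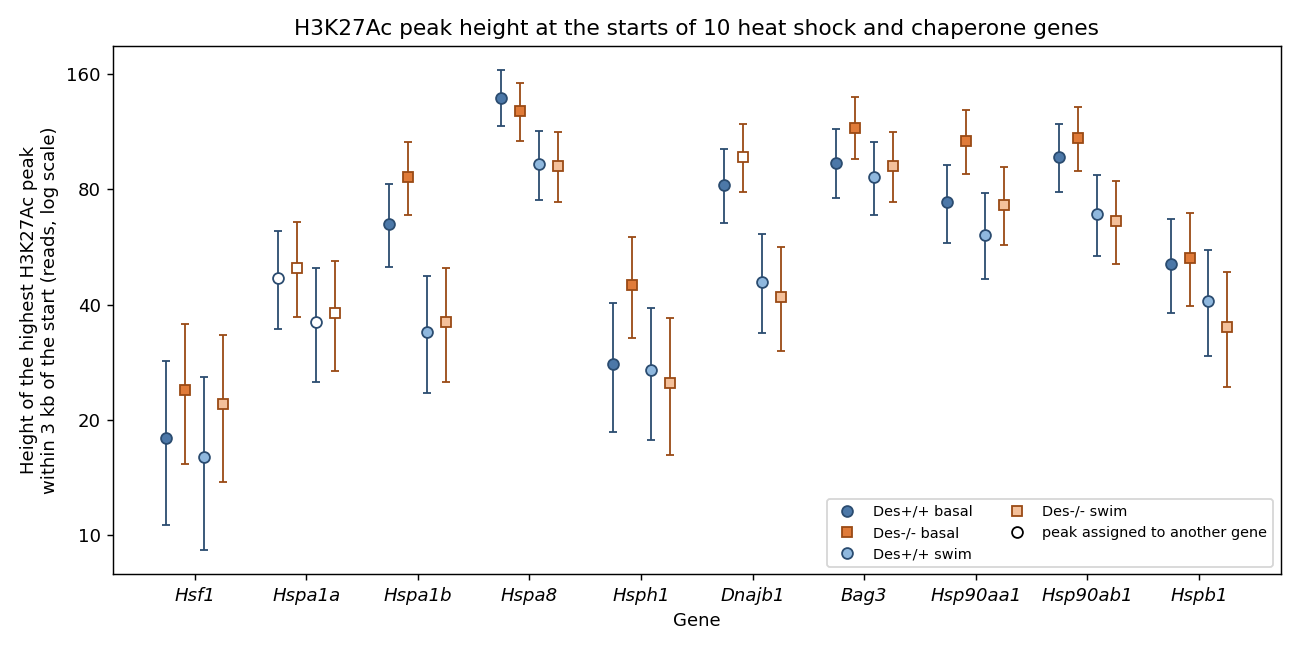
Height in reads (log axis) of the highest H3K27Ac peak within 3 kb of the RefSeq start of each of the 10 genes in the 4 libraries, with exact 95% Poisson intervals for counting error; open symbols are peaks that the annotation assigned to a neighbouring gene. Hspa8 reached 139 reads in Des+/+ basal, Hsf1 stayed between 16 and 24 reads, and both swim libraries lie below both basal libraries at 9 of the 10 genes, Hsf1 being the exception, as they do at 77.3% of all genes.

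Hsf1, the gene of the factor that drives the heat shock response, had the lowest of the highest peaks found at each start. Its single promoter peak was 18 reads high in Des+/+ (95% Poisson interval 10.7 to 28.4) and 24 in Des-/- (15.4 to 35.7) at rest, and 16 (9.15 to 26.0) and 22 (13.8 to 33.3) after swimming. All 4 intervals overlap. The share of all genes with a lower promoter peak was 12.5%, 32.3%, 6.72% and 29.4% in this order, so Hsf1 was below the median gene in every library. The peak lay inside the gene, from 49 to 511 bases after the start in Des+/+ basal and from 43 to 758 bases in Des-/- swim. The start of Bop1, a ribosome biogenesis gene, is 113 bases away.

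The inducible HSP70 genes Hspa1a and Hspa1b encode nearly the same stress-induced chaperone and lie 12918 bases apart, start to start, on chromosome 17. At Hspa1b the main peak lay just upstream of the start and reached 65 reads in Des+/+ (50.2 to 82.8) and 86 in Des-/- (68.8 to 106) at rest, and 34 (23.5 to 47.5) and 36 (25.2 to 49.8) after swimming. Both basal libraries were above both swim libraries, as at 9 of the 10 genes and at 77.3% of 5562 genes with a peak near the start in every list, and neither basal interval overlaps a swim interval. These heights are not scaled for differences between libraries. Scaled as described below, the swim over basal ratio in Des+/+ was 0.738, with an interval of 0.466 to 1.12. Input heights under the main Hspa1b peaks were 2, 3, 3 and 7 reads. The summit lay 318, 320, 278 and 344 bases upstream of the start in the same order. In Des+/+ basal this peak was 1913 bases wide and covered the start, while elsewhere it stopped short of the start, by 61 bases in Des-/- basal, and by 83 and 145 in the Des+/+ and Des-/- swim lists, and was 1365, 794 and 948 bases wide. A lower peak inside the gene was listed separately in Des-/- basal, at 16 reads, and in Des+/+ swim, at 17 reads. Another, at 15 reads and 2062 bases upstream, was listed in Des-/- basal. The heat shock element printed above lay under the main peak in every library except Des-/- swim, where it stood between the peak and the start. The element and the bases around it are the same in Hspa1a, so reads there may come from either copy.

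Hspa1a had its own peak in Des-/- basal, at 18 reads, and in Des+/+ swim, at 15 reads, and none in the other libraries. Both lay inside the gene. The main peak beside the Hspa1a start was assigned to Hspa1l, the germ cell HSP70 gene, a divergent gene whose start is 547 bases away. It measured 47 reads in Des+/+ basal and 50 in Des-/- basal, against 36 and 38 in the Des+/+ and Des-/- swim libraries. In Des+/+ basal this peak ran 365 bases into Hspa1a and took in the start. In Des-/- swim it ended 92 bases before the start, and no peak under any symbol was listed inside Hspa1a. The peaks with the Hspa1a symbol in Des-/- basal and Des+/+ swim were at or next to the listing minimum.

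Because the HSP70 pair is almost a duplicate, reads can be shared between the copies. The aligner placed a read that matches several positions at 1 of them. Of the 2699 windows of 100 bases in Hspa1a, 1350 had an exact copy at Hspa1b, and 49.8% of those in Hspa1b had one at Hspa1a. The summits of the main Hspa1b peaks stood outside this shared sequence, with 0 of 100 windows over the summit copied in each of the 4 libraries, and the same held for the 4 peaks assigned to Hspa1l. The small peak inside Hspa1a had 46 of 100 copied windows over its summit in Des-/- basal and 100 of 100 in Des+/+ swim. The small peak inside Hspa1b had 100 of 100 in Des-/- basal and 2 of 100 in Des+/+ swim. Heights of the peaks inside these genes are thus uncertain as to the copy they came from. In the 1 kb before each start, 102 of 901 windows were copied, and between the differences C204T and G2T the sequences are identical. The heat shock element lay in that stretch, as did each edge where a main peak stopped short of the Hspa1a or Hspa1b start. Where these peaks ended is therefore uncertain in the same way.

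Hspa8 encodes HSC70, the constitutive member of the family, and had the highest or joint highest promoter peak of the group in every library. Its main peak reached 139 reads in Des+/+ (117 to 164) and 128 in Des-/- (107 to 152) at rest, and 93 (75.1 to 114) and 92 (74.2 to 113) after swimming. At least 99.1% of all genes had lower promoter peaks in each library, and the Des+/+ basal peak ranked 24 of 15757. The highest peak lay upstream, with its summit 899, 913, 913 and 926 bases before the start in library order. A companion peak over the start was 73, 76, 45 and 50 reads high in the same order. Des-/- basal alone had a further peak inside the gene, at 16 reads, and another 9888 bases downstream of the start, at 15 reads. Both stand at or next to the listing minimum.

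**Figure D2:**
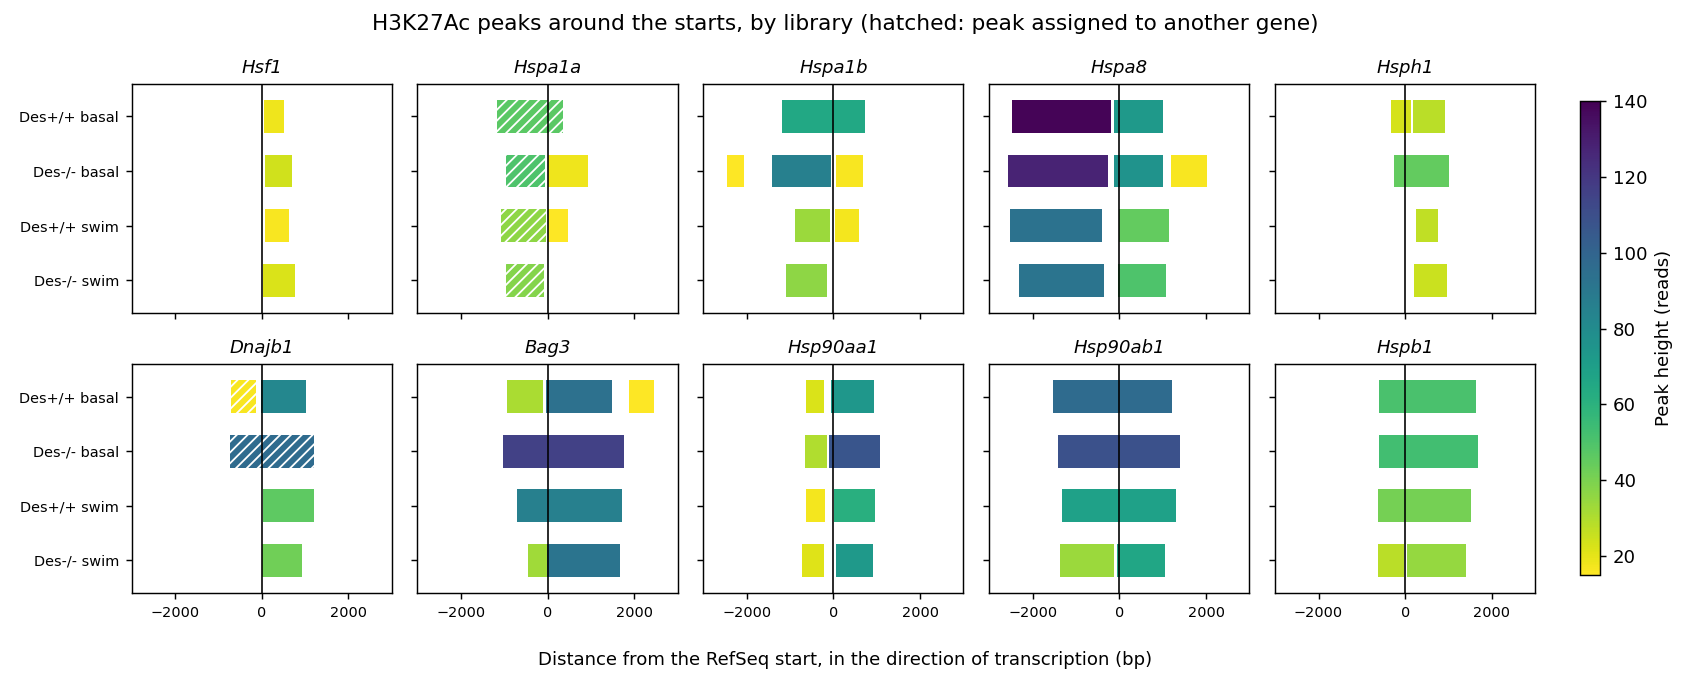
H3K27Ac peaks within 3 kb of the start of each of the 10 genes, with distance from the RefSeq start in bp on the horizontal axis, a row per library and the colour giving peak height in reads; hatched peaks were assigned to another gene. Hspa8 has a tall peak upstream and a lower one over the start in all 4 libraries, the main Hspa1b peak lies upstream, and the Dnajb1 start in Des-/- basal lies under a peak of 97 reads assigned to Tecr.

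Hsph1 encodes HSP110, a nucleotide exchange factor that resets HSP70. Its promoter height was 28 reads in Des+/+ basal (18.6 to 40.5) and 45 in Des-/- basal (32.8 to 60.2), against 27 (17.8 to 39.3) and 25 (16.2 to 36.9) in the Des+/+ and Des-/- swim libraries. Des-/- basal was the highest, and its interval overlaps those of the other libraries. The input height was 2 reads in both basal libraries and 6 in both swim libraries. In Des+/+ basal the signal was listed as a pair of peaks 46 bases apart, which in Des-/- basal formed 1 peak of 1278 bases. The swim peaks began inside the gene, 246 bases from the start in Des+/+ and 195 bases in Des-/-.

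Dnajb1 encodes HSP40, the J protein that delivers clients to HSP70 and stimulates its ATPase. Its promoter peak was 82 reads high in Des+/+ basal (65.2 to 102), 46 in Des+/+ swim (33.7 to 61.4) and 42 in Des-/- swim (30.3 to 56.8). In Des-/- basal no peak carried its symbol, but a peak of 97 reads and 1944 bases, assigned to the divergent gene Tecr, covered the start. It spanned the position where Des+/+ basal had a Dnajb1 peak and a separate Tecr peak of 16 reads, 123 bases apart. Basal heights were above swim heights at this start in both genotypes. The input height was 4, 5, 3 and 13 reads in library order.

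Bag3 encodes the cochaperone that links HSC70 and small heat shock proteins to autophagy at the Z-disc, the sarcomere boundary to which desmin filaments attach. Its promoter peak was 94 reads high in Des+/+ (76.0 to 115) and 116 in Des-/- (95.9 to 139) at rest, and 86 (68.8 to 106) and 92 (74.2 to 113) after swimming. These heights were above those of 97.8%, 98.8%, 99.2% and 99.1% of genes. In the swim lists the Bag3 peak ranked 54 of 11157 peaks in Des+/+ and 63 of 10407 in Des-/-.

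Bag3 also carried a series of low peaks along its body. It had 9, 7, 7 and 6 peaks in library order, and 0.456%, 0.985%, 0.614% and 0.865% of all gene symbols had more. Intron 1, which is 15928 bases long, was covered by peaks over 8737 bases (54.9%) in Des+/+ and 9467 bases (59.4%) in Des-/- at rest, and over 9001 (56.5%) and 5844 (36.7%) after swimming. Peaks more than 3 kb from the start were 15 to 33 reads high across the 4 libraries. A peak over exon 2 that reached into exon 3 was present in every library, at 33 reads in Des+/+ and 26 in Des-/- at rest, and 16 and 26 after swimming. In Des-/- swim, no peak was listed between 9468 and 16374 bases from the start, where the other libraries had 1 or more peaks with their summits, of 16 to 26 reads. With heights this near the minimum of 15 reads, the missing peaks were not shown to be missing signal. A peak at 15 reads beyond the end of the gene, 2605 bases from it, was listed in Des+/+ swim.

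**Figure D3:**
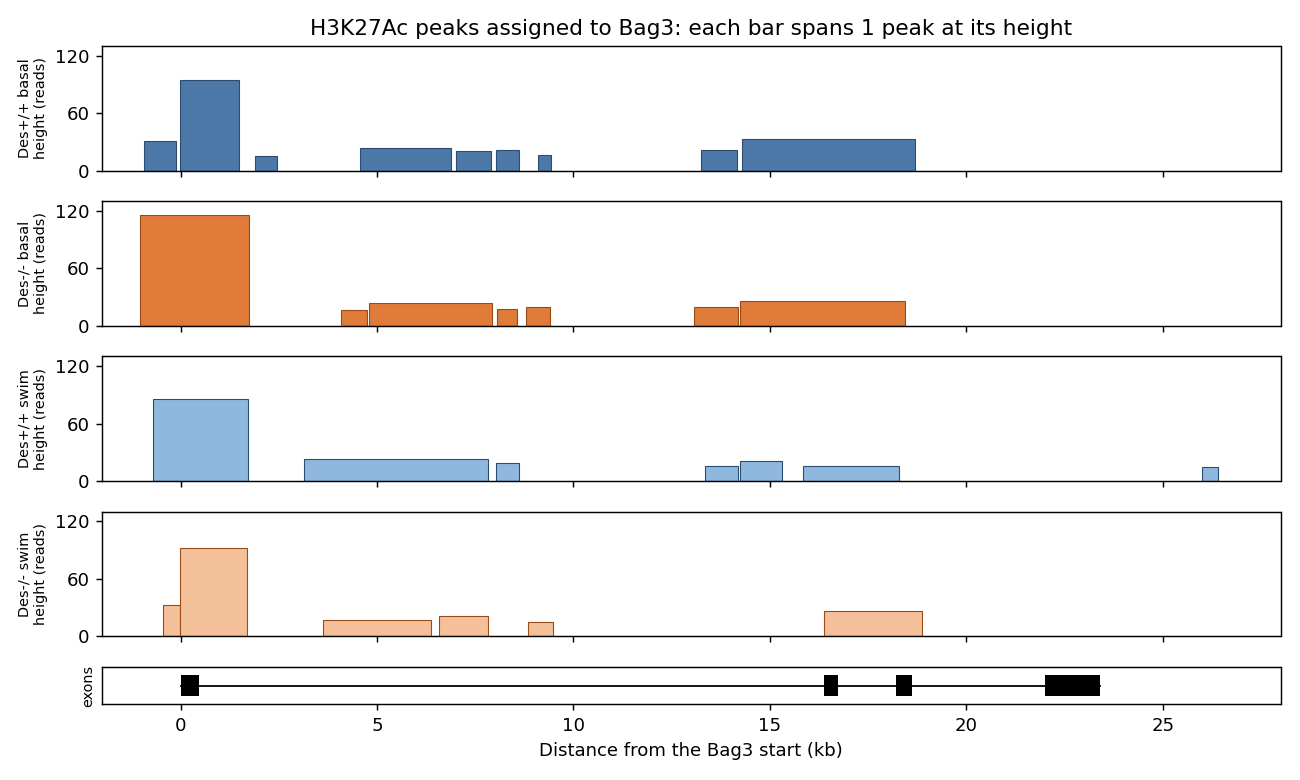
H3K27Ac peaks assigned to Bag3 in the 4 libraries, with distance from the Bag3 start in kb on the horizontal axis; each bar spans 1 peak and its height is the peak height in reads, and black boxes are the 4 exons. The promoter peak is 86 to 116 reads high, and a series of peaks of 15 to 33 reads follows along the gene in each library.

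The cytosolic HSP90 genes both had tall promoter peaks. Hsp90aa1, the stress-inducible form, reached 74 reads in Des+/+ basal (58.1 to 92.9) and 107 in Des-/- basal (87.7 to 129), against 61 (46.7 to 78.4) and 73 (57.2 to 91.8) in the Des+/+ and Des-/- swim libraries. Des-/- basal was the highest, and its interval overlaps those of Des+/+ basal and Des-/- swim but not that of Des+/+ swim. These heights are not scaled for differences between libraries. A second peak upstream was 22, 30, 17 and 21 reads high in library order, and a peak of 20 reads about 10 kb upstream was listed in Des-/- basal alone. Hsp90ab1, the constitutive form, reached 97 reads in Des+/+ (78.7 to 118) and 109 in Des-/- (89.5 to 131) at rest, and 69 (53.7 to 87.3) and 66 (51.0 to 84.0) after swimming. Outside Des-/- swim it had 1 broad peak across the start, 2742, 2816 and 2614 bases wide. In Des-/- swim the region was listed as a pair of peaks 76 bases apart, of 66 and 34 reads, and the input height under the higher of them was 11 reads against 4 or 5 in the other libraries.

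Hspb1 encodes HSP27 (HSP25 in the mouse), a small heat shock protein that binds actin and desmin filaments. Its promoter peak was 51 reads high in Des+/+ (38.0 to 67.1) and 53 in Des-/- (39.7 to 69.3) at rest, and 41 (29.4 to 55.6) and 35 (24.4 to 48.7) after swimming. All 4 intervals overlap. The heat shock elements printed above lay under it in every library except Des-/- swim, where a separate peak of 28 reads that ended 35 bases before the start covered them. The other peaks assigned to Hspb1 were low and far away. A peak about 8 kb upstream was listed in every library except Des+/+ basal, at 17, 19 and 23 reads. Peaks 17 to 20 kb past the end of the gene, of 16 to 24 reads, lay within 285 bases of Ywhag or inside it, so that their symbol rests on the nearest start alone.

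To compare libraries of unequal depth, the ratio of promoter heights, each plus 1 read, was divided by the median ratio of all genes with a promoter peak in both lists. Removed medians were 0.11 on the log2 scale for Des-/- over Des+/+ in basal, 0.17 in swim, and -0.48 and -0.43 for swim over basal in Des+/+ and Des-/-. A ratio below 1 after swimming is therefore relative to a genome-wide median height of 0.719 and 0.740 of basal, and whether that median reflects depth or a general change of the mark cannot be told apart. Likewise, a change in the share of cells that carry the mark and a change of the mark per cell cannot be told apart in bulk chromatin. A ratio also needs a listed promoter peak, of at least 15 reads, in both libraries. For a gene near that minimum in basal, the swim over basal ratio by height could therefore only come out above 1.

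At rest, no gene of the group differed by more than 1.5-fold between Des-/- and Des+/+. Of the 8 genes with a promoter peak in both basal lists 0 were past this limit, against 5.25% of 8061 genes in either direction. The median of the 8 was 0.24 on the log2 scale relative to the genome, and 6 of them were above 0. The largest ratio was that of Hsph1, at 1.47 (0.907 to 2.47), above those of 96.8% of genes. Hsp90aa1 followed at 1.33 (0.985 to 1.82), Hspa1b at 1.22 (0.876 to 1.72) and Bag3 at 1.14 (0.862 to 1.51). Hspa8 had the lowest ratio, at 0.852 (0.664 to 1.09). All of these intervals include 1. With each height divided by its input height, 1 of 8 genes was past 1.5-fold, against 32.4% of all genes, and the ratios of 4 crossed 1. Hspa1b was then at 0.885, Hsp90aa1 at 0.92, Hspa8 at 1.10 and Hspb1, which was at 0.960 by height, at 1.86. With any peak within 3 kb of the start counted, Dnajb1 stood at 1.08 (0.800 to 1.47) and Hspa1a at 0.974 (0.642 to 1.48).

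After swimming, 0 of 9 genes were past 1.5-fold between the genotypes, against 6.43% of 5410 genes. Relative to the genome, the median of the 9 was -0.19 on the log2 scale, and 2 were above 0. Hsf1 had the highest ratio, at 1.20 (0.613 to 2.49), and Hspb1 the lowest, at 0.762 (0.469 to 1.22). Hspa1b, with 36 reads in Des-/- and 34 in Des+/+, had a ratio of 0.940 (0.572 to 1.55). Every interval includes 1. In this comparison the input heights differed between the libraries, with a median over all genes of 6 reads for Des-/- and 3 for Des+/+. With each height divided by its input height, 4 of 9 genes were past 1.5-fold, against 34.2% of all genes. Hsf1 was then at 2.09, Hspa8 at 0.656, Hsp90ab1 at 0.617 and Dnajb1 at 0.404, and Hsph1 turned from 0.825 to 1.44.

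For swim over basal in Des+/+ mice, 0 of 9 genes were past 1.5-fold, against 6.1% of 6227 genes, and the median of the 9 was 0.17 on the log2 scale. The highest ratios were those of Hsph1, at 1.34 (0.761 to 2.36), Bag3, at 1.27 (0.939 to 1.72), and Hsf1, at 1.24 (0.590 to 2.57). Hsf1, at 18 reads in Des+/+ basal, was too near the listing minimum for its ratio by height to come out below 1. Hspa1b was the lowest, at 0.738 (0.466 to 1.12), and Dnajb1 stood at 0.788 (0.532 to 1.13). All intervals include 1. With each height divided by its input height, 2 of 9 genes were past 1.5-fold, against 35.0% of all genes, namely Hspa1b at 0.563 and Hsph1, which crossed 1, at 0.586. Hsf1 also crossed 1, to 0.845, as did Hspa8, from 0.934 to 1.27, and Hsp90ab1, from 0.994 to 1.21, while Dnajb1 stood near the genome median, with 50.3% of genes lower.

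For swim over basal in Des-/- mice, Hspa1b was past 1.5-fold, 1 of 8 genes, against 6.02% of 6183 genes in either direction and 2.36% lower. From 86 reads in basal to 36 in swim, its scaled ratio was 0.575 (0.372 to 0.844), and 0.566% of genes were lower. Among the 1780 genes with a mean height of at least 40 reads over the 4 libraries, 3.43% were past 1.5-fold in either direction, and 0.674% were lower than Hspa1b. Where any peak within 3 kb of the start was counted, Dnajb1 joined it, from 97 to 42 reads, with a scaled ratio of 0.594 (0.398 to 0.851), and 0.748% of genes were lower. By that count 2 of 10 genes were lower past 1.5-fold, against 2.32% of 6417 genes lower. The intervals of both genes exclude 1 for counting error, with no check between replicates. By height, these ratios were the lowest of the group over all 4 comparisons, and the intervals make no allowance for that choice. Hsph1 stood at 0.764 (0.441 to 1.25), Hsp90ab1 at 0.823 (0.594 to 1.12), Hspb1 at 0.901 (0.565 to 1.39), Hsp90aa1 at 0.926 (0.675 to 1.25), Hspa8 at 0.975 (0.735 to 1.28), Bag3 at 1.07 (0.806 to 1.42) and Hsf1 at 1.24 (0.662 to 2.31). The input height under the Hspa1b peak was 3 reads in Des-/- basal and 7 in Des-/- swim, and the ratio was 0.567 with the input height subtracted from each height and 0.524 with each height divided by it. Under that division 5 of 8 genes were past 1.5-fold, against 37.6% of all genes. Hspb1 was then at 0.493, Hsph1 at 0.597, Hsf1 at 1.51 and Bag3, which turned from 1.07, at 0.653, and Hsp90aa1 turned from 0.926 to 1.31. Des-/- swim was also the library in which 3 of 10 cardiomyocyte markers lacked a promoter peak, and the part of this difference in the Hspa1b value was not tested. Of all genes with a promoter peak in Des-/- basal, 32.0% had none in Des-/- swim.

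Relative to the genome, Hspa1b had a lower value in swim than in basal in both genotypes. The log2 change was -0.44 in Des+/+ and -0.80 in Des-/-, and the difference of -0.36 had a counting interval of -1.18 to 0.46, so that a difference between genotypes was not detectable at this depth. For Dnajb1, with any peak near the start counted, the changes were -0.33 and -0.75, and the difference of -0.42 had an interval of -1.16 to 0.32. The interval of this difference included 0 for each of the 10 genes.

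**Figure D4:**
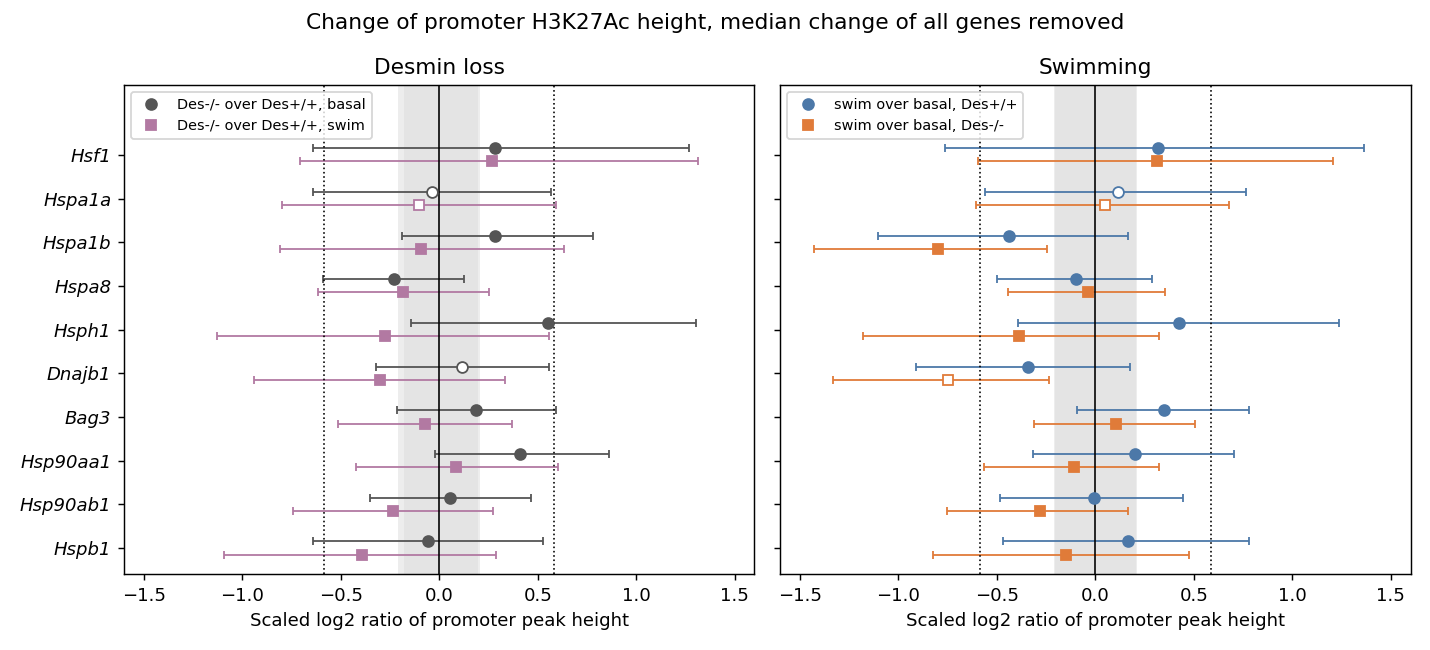
Scaled log2 ratio of promoter peak height for each of the 10 genes, on the left for Des-/- over Des+/+ in basal and swim and on the right for swim over basal in both genotypes, with 95% counting intervals; grey bands span the middle quartiles of all genes, dotted lines mark 1.5-fold, and open symbols use the highest peak within 3 kb of the start whatever its symbol. Hspa1b at -0.80 and Dnajb1 at -0.75 in Des-/- lie past the dotted line on the side of lower swim height.

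Over the 4 libraries, Hspa1b had the widest range of scaled promoter height among the genes measured in all lists, 0.75 on the log2 scale, wider than that of 91.6% of 5260 genes. Hsf1 had 0.65 and Hsph1 0.56. Hsp90aa1, Bag3 and Hspb1 were in the middle, at 0.42, 0.40 and 0.37, and 50.7%, 48.1% and 42.2% of genes had smaller ranges. Hspa8 and Hsp90ab1, the constitutive HSP70 and HSP90 genes, had 0.23 each, and 14.1% and 14.9% of genes had smaller ranges. The background was not matched for height, and counting error widens the range of genes with low peaks, such as Hsf1, more than that of tall ones. By Euclidean distance between centred profiles, the nearest of the 5260 genes to Hspa1b were Zbtb41, at 37, 47, 18 and 19 reads in library order, Ube2r2, at 48, 61, 26 and 27 reads, and Lyn, at 35, 45, 17 and 20 reads. A search of 5260 genes over 4 libraries returns nearest genes for any profile, so these likenesses are a description only.

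Peaks of the group that had no overlapping partner in another library were low. In basal, 5 of 24 Des-/- peaks (20.8%) had no partner in Des+/+, against 19.7% of all peaks, and 2 of 22 Des+/+ peaks (9.09%) had none in Des-/-, against 14.5%. After swimming, 7 of 21 Des+/+ peaks (33.3%) had no partner in Des-/-, against 27%, and 1 of 19 Des-/- peaks (5.26%) had none in Des+/+, against 22.2%. Between conditions, 4 of 22 Des+/+ basal peaks (18.2%) had none in Des+/+ swim, against 39.0%, and 9 of 24 Des-/- basal peaks (37.5%) had none in Des-/- swim, against 44.8%. In the reverse direction, 2 of 21 Des+/+ swim peaks (9.52%) had none in Des+/+ basal, against 8.39%, and 0 of 19 Des-/- swim peaks had none in Des-/- basal, against 6.28%. The highest peak without a partner in any of these pairs was 23 reads. By symbol, the genes with a promoter peak in 1 list of a pair were Hspa1a and Dnajb1. The Dnajb1 start of Des-/- basal and the Hspa1a start of Des+/+ basal lay under a peak with another symbol, while in Des-/- swim no peak reached the Hspa1a start. None covered that start in Des+/+ swim either, where the peak with the Hspa1a symbol began 3 bases after it. Between the basal lists this was Hspa1a, found in Des-/-, and Dnajb1, found in Des+/+, and 11.3% and 6.78% of all genes had a promoter peak on these sides alone. Between the swim lists it was Hspa1a, found in Des+/+, where 16.8% of all genes had a promoter peak in Des+/+ alone and 16.2% in Des-/- alone. In Des+/+, swim had Hspa1a where basal did not, as 4.29% of all genes did, while 28% had a promoter peak in basal alone. In Des-/-, Dnajb1 was found in swim alone, as were 4.18% of all genes, and Hspa1a in basal alone, as were 32.0%.

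The wider chaperone system was followed through 77 other genes, namely HSP70 and HSP90 relatives, small heat shock proteins, J proteins, chaperonins, BAG proteins, heat shock factors and cochaperones. Of these, 45 had a promoter peak in all 4 lists, 22 in some and 10 in none. Past 1.5-fold, 1 was higher and 1 lower of 54 genes for Des-/- over Des+/+ in basal, and 0 and 3 of 49 in swim. For swim over basal, 3 were higher and 1 lower of 51 genes in Des+/+, and 2 and 3 of 50 in Des-/-. Of all genes, 2.67% were higher and 2.58% lower for the genotypes in basal, 2.98% and 3.46% in swim, 3.4% and 2.7% for swimming in Des+/+, and 3.66% and 2.36% in Des-/-. Median changes of the list were -0.01, -0.09, 0.03 and -0.02 on the log2 scale in the same order.

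Among chaperonins and HSP90 adaptors, Hspd1, the mitochondrial HSP60 gene, and Stip1, whose product HOP carries clients from HSP70 to HSP90, had the lowest ratios of the list for swim over basal in Des-/-. Both went from 70 reads in Des-/- basal to 33 in Des-/- swim, with scaled ratios of 0.647 (0.408 to 0.977). In Des+/+ they had 62 and 54 reads in basal and 40 and 34 in swim. Hspe1, the HSP10 gene that shares a start region with Hspd1, had a peak under its own symbol in Des-/- swim, at 31 reads, and the highest peak within 3 kb of its start was 70 reads in Des-/- basal and 33 in Des-/- swim.

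Fkbp5, a cochaperone of the glucocorticoid receptor whose gene responds to glucocorticoids, was the gene of the list past 1.5-fold and higher in swim than in basal in both genotypes. It had 19 reads in Des+/+ basal and 24 in Des-/- basal, against 32 and 29 in the Des+/+ and Des-/- swim libraries. The scaled ratio was 2.30 (1.29 to 4.38) in Des+/+ and 1.62 (0.918 to 2.93) in Des-/-. Fkbp5, at 19 reads in Des+/+ basal, was too near the listing minimum for its Des+/+ ratio to come out below 1. Within 3 kb of the RefSeq start, the peak in Des+/+ swim was 21 reads and none was listed in Des+/+ basal, so the larger ratio rests on a peak outside this window. Dnajb4, a J protein gene expressed in heart, had 34, 34, 60 and 27 reads in library order, with a ratio of 2.42 (1.59 to 3.86) for swim over basal in Des+/+ and 0.408 (0.244 to 0.640) for Des-/- over Des+/+ in swim. Whatever the symbol, however, the highest peak near its start was 80 reads in Des+/+ basal, and 60 and 67 reads in the Des+/+ and Des-/- swim lists, so both ratios rest on which peak was given its name.

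Of the 8 other small heat shock protein genes in the list, 3, 4, 5 and 3 had a promoter peak in library order, with median heights of 40, 31.5, 30 and 20 reads. Cryaa, Hspb3 and Hspb9 had none in any list, and Hspb2 had 1 in Des+/+ swim alone, at 15 reads. Hspb7, which is abundant in heart, had 40 reads in Des+/+ and 38 in Des-/- at rest, and 30 and 20 after swimming, with a ratio of 0.602 (0.319 to 1.08) for Des-/- over Des+/+ in swim. Hspb6 had no peak under its symbol in Des+/+ basal and 27, 30 and 20 reads in the other libraries in this order, and the same ratio of 0.602 (0.319 to 1.08), while the highest peak near its start was 28 reads in Des-/- swim and 30 in Des+/+ swim. Cryab, which encodes alphaB-crystallin, the chaperone of desmin, had 35, 26 and 23 reads and no promoter peak in Des-/- swim. Under any symbol, no peak lay within 3 kb of the Cryab RefSeq start in Des-/- basal or in either swim list. Its peaks of 26 and 23 reads thus stood outside that window. Hspb8, the partner of BAG3, had 45, 36, 31 and 24 reads in the 4 libraries and was chosen after its values were seen, as were Hspb2 and the genes without a peak. The lowest of the 4 heights of Hspb7 and Hspb8 was in Des-/- swim, as it was for 24.6% of the 5260 genes with a promoter peak in all lists, and 16.8% of genes with a promoter peak in Des+/+ swim had none in Des-/- swim. The counting interval of the Hspb7 ratio includes 1. In Des-/- swim promoter peaks were also missing at 3 of 10 cardiomyocyte markers, whose summed height was 341, 347, 303 and 186 reads in library order, and the part of this in the values of small heat shock protein genes was not tested.

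The remaining named genes of the list were as follows. In basal, Dnajb11, a J protein of the endoplasmic reticulum, had 42 reads in Des-/- and 24 in Des+/+, a ratio of 1.59 (0.957 to 2.79), and Bag2 had 17 and 28 reads, a ratio of 0.574 (0.288 to 1.06). For swimming in Des+/+, Unc45a, a myosin chaperone gene, had 17 reads in basal and 19 in swim, a ratio of 1.55 (0.765 to 3.18), although the highest peak near its start was 23 reads in basal. With 17 reads in basal, its ratio could not have come out below 1, given the listing minimum. Dnajb9 had 66 and 31 reads, a ratio of 0.665 (0.412 to 1.02). For swimming in Des-/-, Hsf2 had 19 and 22 reads, a ratio of 1.55 (0.809 to 3.06), and Dnajb11 had 42 and 20 reads, a ratio of 0.660 (0.358 to 1.12). The Hsf2 ratio, with 19 reads in basal, likewise could not have come out below 1. Dnajb11 and Hspa2 had no promoter peak in Des+/+ swim, and in the other lists their promoter heights were 20 to 42 and 26 to 30 reads. Hspa13 had a promoter peak in Des-/- basal, at 30 reads, and in no other list. Pfdn4, at 94 reads in Des-/- basal and without a peak in Des+/+ basal, had no peak within 3 kb of its RefSeq start in either list. Hsp90b1, Bag4 and Dnajc7 each lacked a peak under their symbol in 1 or more lists where the start window held 1, at 59 reads in Des-/- basal for Hsp90b1, 37 in Des-/- basal for Bag4 and 24 in Des-/- swim for Dnajc7.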

How the data were processed

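Chromatin of cardiomyocytes was precipitated with antibodies to H3K27Ac or lamin A/C, and 8 of the 16 samples are inputs. Per the labels and the methods, the authors aligned 100-base reads to GRCm38 (mm10) with Bowtie2 2.4.4 at its default settings, sorted them with SAMtools 1.13, called peaks in each library against its input with an in-house script, and annotated them with ChIPseeker 1.36.0. Whether duplicate reads were removed and how input depth was scaled is not given in the sources used here. The deposited heights of peaks and inputs are a coverage signal in reads. The deposited false discovery rate is an adjusted p-value and was used only to describe the filter. The deposited distance to the start is a score in bp. The authors' fold columns were not used.

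Gene values, ratios, overlaps of at least 1 bp, and motif searches were computed in Python 3.11.15 with pandas 2.3.3, numpy 2.4.6, scipy 1.17.1, pysam 0.24.0 and matplotlib 3.10.9. Scaled ratios were tested on simulated heights. The interval of a ratio was checked only on a pair of equal heights, and the coverage of the intervals was not tested. Gene positions and sequences are those of RefSeq for GRCm38.p6, and all 10 symbols matched. Genes named from the wider list were, per comparison, up to 3 past 1.5-fold in each direction and up to 5 with the highest peak in 1 list of the pair, plus the 3 genes nearest to the member with the widest range. The 10 genes, the lists and the rules were chosen with earlier results of these data known. With 1 library per group, no alternative that leaves out a library was possible.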

Additional observations from a re-analysis of the deposited data

Results flagged for a closer look

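The change of promoter height with swimming had opposite signs in the genotypes for 3 of 8 genes with a promoter peak in all lists, against 45.2% of 5260 genes, so that the count does not set these genes apart. Hsph1 went from 28 to 27 reads in Des+/+ and from 45 to 25 in Des-/-, which is 0.43 and -0.39 on the scaled log2 axis. The difference, Des-/- minus Des+/+, was -0.814 with a counting interval of -1.85 to 0.22. With each height divided by its input height, the Hsph1 change was negative in both genotypes, at -0.77 and -0.74, since the input height was 2 reads in both basal and 6 in both swim libraries. Hsp90aa1 differed by -0.312, with changes of 0.20 and -0.11, and Hspb1 by -0.318, with changes of 0.17 and -0.15. Over input, the Hsp90aa1 changes were both positive, at 0.23 and 0.39, and those of Hspb1 kept opposite signs, at 0.19 and -1.02. With 1 library per group the difference between genotypes was not tested for any of them.

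Lamin A/C peaks, which no comparison above used, appeared at the HSP90 pair in Des+/+ swim and at none of the 10 genes in the other lamin A/C lists. These were 2 of the 635 peaks of that list. The share of all genes with a lamin A/C peak is not given here, so whether the pair stands out cannot be told. At Hsp90ab1 a peak of 200 bases had a height of 9 reads (95% Poisson interval 4.12 to 17.1) over an input of 2. At Hsp90aa1 a peak of 171 bases had a height of 8 reads (3.45 to 15.8) over an input of 2. Both lie wholly in coding exons. In lamin A/C the basal lists had 188 (Des+/+) and 831 (Des-/-) peaks and the swim lists 635 and 536, and 8 reads is the smallest height they list.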

How the results depend on the processing

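No paired analysis was possible because each group had 1 library. Of 132 values recomputed, 87 stayed within 1.5 times the main count or within counting error of the main median. The number of the 10 genes with a promoter peak was among these under every alternative tried. A minimum height of 30 reads left 10, 9, 8 and 10 peaks of the group in Des+/+ basal, Des-/- basal, Des+/+ swim and Des-/- swim, and one of 20 reads left 11 in Des+/+ swim.
Unscaled heights gave 1 gene past 1.5-fold for desmin loss in basal (Hsph1), 2 for swimming in Des+/+ and 4 in Des-/-, with median changes of -0.31 and -0.57. For the wider list they gave 4, 21 and 16 genes in these comparisons. Without scaling, 38.0% of all genes were lower than Hspa8, at 0.671, for swimming in Des+/+. In Des-/-, 30.2% were lower than Hspb1, at 0.667. A large share of all genes thus passes the limit in these swim over basal comparisons, and the counts there do not set the group or the wider list apart.
Height times width gave 3, 3, 3 and 4 genes for desmin loss in basal and swim and for swimming in Des+/+ and Des-/-. The share of all genes past 1.5-fold by this measure is not given here. Of all genes, 87.8% were lower than Hsf1, at 1.54, for desmin loss in basal. For swimming in Des-/-, 16.7% were lower than Hsp90ab1, at 0.658. Many genes thus pass the limit by this measure, and the counts do not set the group apart. Height over input gave 1, 4, 2 and 5, a median of -0.51 for swimming in Des-/-, and 22, 18, 20 and 19 genes of the wider list, with inputs of 2 to 13 reads as divisors under the promoter peaks of the 10 genes and 32.4% to 37.6% of all genes past 1.5-fold.
Height minus input gave 1 for desmin loss in swim (Hsf1). At 2-fold, Hspa1b was not past the limit (0 genes), and the wider list had 0, 1, 2 and 0. Hspa1b in Des-/- was past 1.5-fold under each of the other alternatives. Counting any peak near the start gave 2 genes there, and this alternative and scaling over genes of at least 40 reads were chosen after seeing the data.
Equal numbers of peaks left 3 and 1 peaks without a partner for desmin loss in basal (Des-/- and Des+/+), 1 for Des+/+ basal, 1 for Des-/- swim and 3 for Des-/- basal between conditions. No peak above the larger median height lacked a partner (0 in each of the 7 directions that had any).
Depth limits single genes, since a peak of 15 reads has an interval of 8.40 to 24.7.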
